A study of Bos taurus with 4 samples.

Results

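Between the microRNA gene MIR2404-2 and the phosphatase gene PPP2R2A on bovine chromosome 8, as placed in the genome build bosTau8, the fertile bull C13 had 5 8-oxoG loci in its sperm DNA and the infertile bull C14 had 16. These 21 loci are every record of the lists of 8-oxoG loci whose assigned gene is PPP2R2A or MIR2404-2, of 370 records in C13 and 614 in C14. They were selected on measured values, since a record enters a list by a fold over input above 2 and a q under 0.05 in that bull, and on having the transcription start site (TSS) of 1 of these genes as the nearest. Their number and enrichment are therefore described and not tested. C13 and C14 are Korean native striped bulls, both 6 years of age. C13 was fertile, while C14 was infertile, with sperm that moved poorly and were often misshapen (asthenozoospermia and teratozoospermia). Each bull gave 1 library of DNA captured for 8-oxoG (OG-seq) and 1 library of input DNA, and with 1 animal in each condition the variation among animals is unknown and no test between the bulls was made. Each library came from the DNA of many sperm, and more sperm with 8-oxoG at a place cannot be told apart from more 8-oxoG captured per sperm.

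8-Oxoguanine (8-oxoG) is the most studied oxidised form of guanine. It can pair with adenine during replication, and cells remove it by base excision repair that begins with the glycosylase OGG1. Mature sperm have little capacity for repair. OG-seq attaches biotin to 8-oxoG and enriches the tagged DNA before sequencing. PPP2R2A encodes the B55alpha regulatory subunit of protein phosphatase 2A (PP2A), a serine/threonine phosphatase made of a scaffold, a catalytic and a regulatory subunit, in which the regulatory subunit sets the substrates. It is known for removing the phosphates that cyclin-dependent kinases place on proteins as cells leave mitosis. MIR2404-2 is 1 of 2 bovine genes listed for the microRNA miR-2404, the other being MIR2404-1.

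The loci lay in the space between the genes and in neither of them. In bosTau8, the build of the lists, MIR2404-2 (gene ID 100313446) covers 67 bp of chromosome 8, from 74374393 to 74374459 on the minus strand. PPP2R2A (gene ID 508045) covers 78705 bp, from 74834628 to 74913332 on the plus strand. The genes point away from each other, their TSSs are 460.2 kb apart, and all 21 loci lay upstream of both. All 21 were annotated as distal intergenic, that is outside every annotated gene and promoter, as were 76.8% of all C13 loci and 74.8% of all C14 loci. No locus assigned to another gene was listed in this space. This follows from assignment to the nearest TSS unless another annotated TSS stands there. The loci of both bulls together began 134388 bp from the TSS of MIR2404-2, ended 33729 bp from that of PPP2R2A and spanned 292 kb, or 63.5% of the space, as bosTau8 is assembled. Joined where they overlapped, they made up 16 separate intervals.

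**Figure D1:**
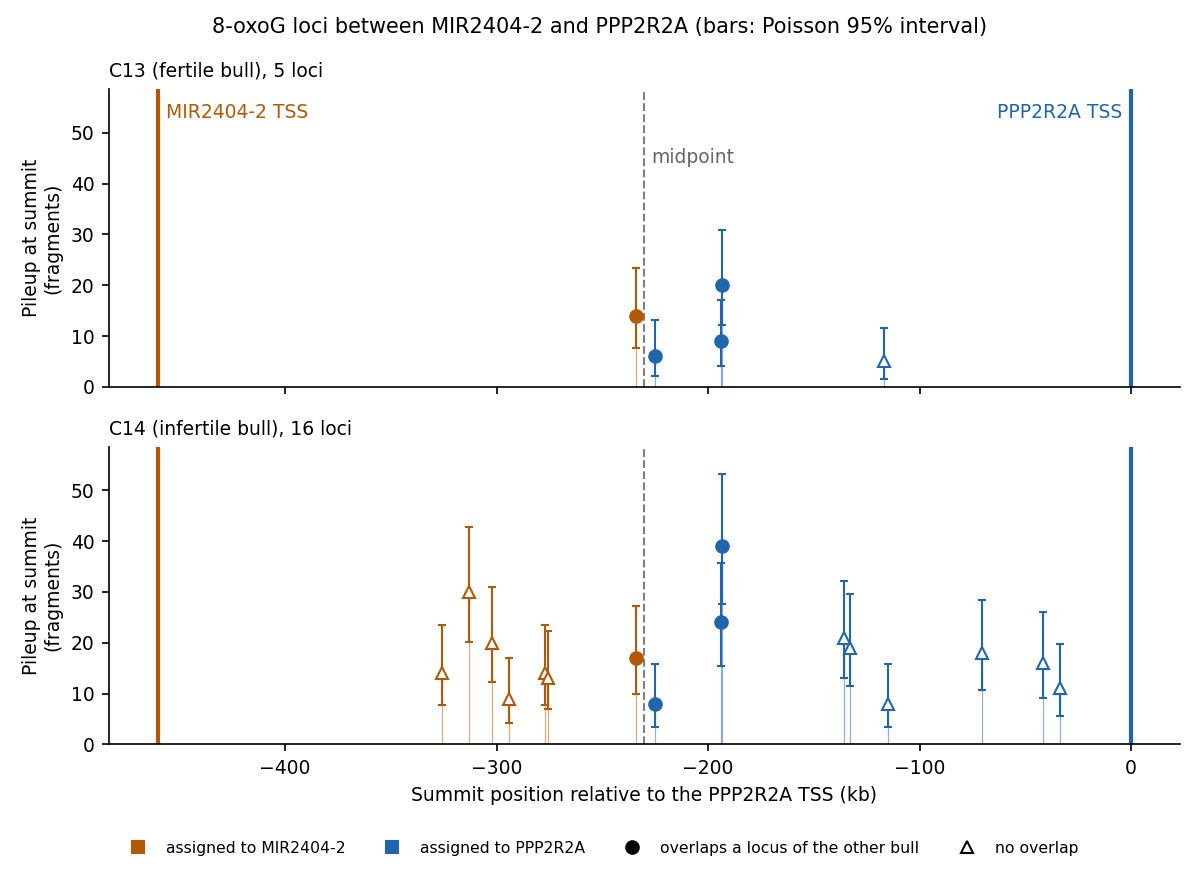
Position of each locus (horizontal axis, summit relative to the TSS of PPP2R2A in kb) and its pileup (vertical axis, fragments, with the exact Poisson 95% interval) in C13 and C14. The filled circles, which overlap a locus of the other bull, stand close to the dashed midpoint, and the open triangles of C14 stand on both sides of them.

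Which gene a locus was assigned to followed from the midpoint between the TSSs, at 74604543.5. C14 locus 7 (74600589 to 74600786) was 226130 bp from the TSS of MIR2404-2 and 233842 bp from that of PPP2R2A, and was assigned to MIR2404-2. C14 locus 8 (74609597 to 74609802), 8810 bp further along, was 224826 bp from PPP2R2A and 235138 bp from MIR2404-2, and was assigned to PPP2R2A. The distance to the assigned TSS ranged from 33729 bp to 226130 bp, and only C14 loci 14, 15 and 16 were within 100 kb of it. In the gene table of the later assembly ARS-UCD2.0, from which no coordinate is given here, 2 lncRNA genes, 1 snRNA gene and 1 tRNA gene stand between MIR2404-2 and PPP2R2A. That assembly places the genes much closer together than bosTau8 does, and closer than the span of the loci, so not all of the loci can lie between the genes there at the bosTau8 spacing. The place of the loci between these genes, their assignment to them, the distances, the span and the density therefore hold for bosTau8 alone and are uncertain beyond it. Whether the assembly of this place bears on the pileups was not tested. The next protein-coding genes in that table are EBF2, a transcription factor gene, on the side of MIR2404-2 and BNIP3L, a gene of mitochondrial autophagy, on the other side, and neither had a locus in either list.

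In C13, 4 loci were assigned to PPP2R2A and 1 to MIR2404-2, together 1.35% of its 370 loci (exact binomial 95% interval 0.440% to 3.13%). The pileup, the number of captured fragments that overlap at the summit of a locus, is a raw count that was not scaled between the bulls. C13 locus 1 (74600584 to 74600787), the locus of MIR2404-2, had a pileup of 14 (exact Poisson 95% interval 7.65 to 23.5). It was enriched 10.0-fold over input, with a −log10 q of 11.8. C13 locus 2 (74609597 to 74609789) had a pileup of 6 (2.20 to 13.1), was enriched 6.17-fold and had a −log10 q of 5.24. Its local background, the number of fragments that MACS2 expected there without enrichment, was 0.135. This is the lowest value in the C13 list, which 114 of the 370 loci shared, and so it is not a value particular to this locus. These intervals, like all those given here, cover counting error only, and the reads carried no molecular identifiers.

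C13 loci 3 and 4 were subpeaks of the same interval (74640648 to 74641147, 500 bp), 193481 bp upstream of PPP2R2A. C13 locus 3 had its summit at 74640736 and a pileup of 9 (4.12 to 17.1). C13 locus 4 had its summit at 74641028, a pileup of 20 (12.2 to 30.9), an enrichment of 16.7-fold and, by q, a −log10 of 26.2, each the highest of the cluster in C13. Its pileup was above that of 83.2% and its fold enrichment above that of 95.7% of all C13 loci. C13 locus 5 (74717916 to 74718223) was the weakest, with a pileup of 5 (1.62 to 11.7), an enrichment of 4.95-fold and a −log10 q of 2.69. The other 4 C13 loci had a −log10 q of at least 5, as did 70.0% of all C13 loci.

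In C14, 9 loci were assigned to PPP2R2A and 7 to MIR2404-2, together 2.61% of its 614 loci (1.497% to 4.20%). The C14 list gave higher numbers of fragments on the whole. Its lowest local background was 0.359, 2.66 times that of C13, and its median pileup was 18 where that of C13 was 9, so the raw pileups of the bulls are not on a common scale. The total depth of the libraries is not known from the lists. All 16 C14 loci had a pileup of at least 8, and 4 of them exceeded the pileup of 20 at C13 locus 4. A −log10 q of at least 5 was reached by 12 of the 16 loci, beside 68.4% of all C14 loci.

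Of the 7 C14 loci assigned to MIR2404-2, 6 formed a group on the side of that gene, within 49.9 kb. C14 locus 2 (74521140 to 74521395) was the strongest of them, with a pileup of 30 (20.2 to 42.8), an enrichment of 17.9-fold and a −log10 q of 33.2. C14 locus 1 (74508847 to 74509047), which is the nearest of all to MIR2404-2, had a pileup of 14 (7.65 to 23.5) and a −log10 q of 10.2. The pileup intervals of these neighbours overlap. C14 locus 3 (74532394 to 74532811) had a pileup of 20 (12.2 to 30.9) but a fold enrichment of 4.10, the lowest in the cluster. Its local background of 4.13 was the highest in the cluster, 11.5 times the lowest of the list, while 8 of the 16 C14 loci had a background above 1, beside 53.4% of all C14 loci.

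C14 locus 4 (74540392 to 74540589) was the weakest of the group by q, with a pileup of 9 (4.12 to 17.1) and a −log10 q of 2.57. C14 loci 5 (74557565 to 74557798) and 6 (74558561 to 74558773) were 762 bp apart and nearly alike, with pileups of 14 (7.65 to 23.5) and 13 (6.92 to 22.2). Their fold enrichments were 10.8 and 9.60, and their −log10 q values 13.6 and 11.2. The nearest C13 locus to any of these 6 was 41810 bp away.

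Of the 9 C14 loci assigned to PPP2R2A, 6 formed a group on the side of that gene, spread over 102 kb. C14 loci 11 (74699039 to 74699293) and 12 (74701575 to 74701778) were 2281 bp apart, with pileups of 21 (12.999 to 32.1) and 19 (11.4 to 29.7) and fold enrichments of 10.7 and 9.13. C14 locus 13 (74719687 to 74720158) had a pileup of 8 (3.45 to 15.8) and a −log10 q of 2.86. It lay 1463 bp from C13 locus 5, the only C13 locus in this stretch, and both were the weakest PPP2R2A loci of their bull by q. C14 locus 14 (74764083 to 74764279) had a pileup of 18 (10.7 to 28.4) and a −log10 q of 9.75.

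C14 locus 15 (74792838 to 74793033) had a pileup of 16 (9.15 to 26.0) and a −log10 q of 12.0. C14 locus 16 (74800689 to 74800899), the nearest to the TSS of PPP2R2A, had a pileup of 11 (5.49 to 19.7), an enrichment of 8.01-fold and a −log10 q of 7.98. The pileup did not increase towards the gene, and the intervals of loci 14, 15 and 16 overlap one another. At C14 loci 1 and 15 the summit was only 14 and 10 bp from the end of the interval. Neighbouring intervals were a median of 14.5 kb apart in C14 (762 bp to 57.9 kb) and 30.9 kb in C13 (8.81 to 76.8 kb).

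The loci that the bulls had in common stood together in the middle of the cluster. An overlap of 1 bp or more with the other bull's list was found for 4 of the 5 loci of C13, beside 57.0% over its whole list, and for 4 of the 16 loci of C14, beside 36.6%. As shares of the cluster, these counts lie above the list in C13 and below it in C14, with too few loci for either to be read as particular to the cluster. All of the shared loci lay in a stretch of 40.6 kb (74600584 to 74641154) that held no unshared locus. On the MIR2404-2 side of this stretch there were 6 C14 loci and 0 C13 loci. On its PPP2R2A side there were 6 C14 loci and 1 C13 locus, none of them overlapping. The stretch was marked out after the positions were seen. A list gives no value where no locus was called, so the coverage of C13 at the unshared C14 loci is not known.

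At the shared loci the bulls placed their summits 6 to 34 bp apart. At the locus of MIR2404-2, the pileup was 14 in C13 and 17 in C14, a ratio of 1.21 (exact conditional binomial 95% interval 0.563 to 2.66). At the single-peak locus of PPP2R2A it was 6 in C13 and 8 in C14, a ratio of 1.33 (0.406 to 4.66). As the pileups are not on a common scale, a ratio of 1 does not mark equal enrichment, and the pairs elsewhere in the lists serve as the measure for these ratios. Their median ratio of 2.5 lies within both intervals.

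The other shared summits were those of the double locus of PPP2R2A. At its first subpeak (C13 locus 3 and C14 locus 9), the pileup was 9 in C13 and 24 in C14 (15.4 to 35.7), a ratio of 2.67 (1.20 to 6.52). At its second subpeak (C13 locus 4 and C14 locus 10), the pileup was 20 in C13 and 39 in C14 (27.7 to 53.3), a ratio of 1.95 (1.11 to 3.53). The intervals of the 4 ratios overlap one another, and each holds 2.5. The second subpeak was the highest locus of the cluster in each bull. In C14 it was enriched 19.7-fold, more than 94.6% of all C14 loci, with a −log10 q of 42.2.

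Summed over the 4 shared summits, the pileup was 49 in C13 and 88 in C14, a ratio of 1.80 (1.25 to 2.60). Over the 200 shared pairs elsewhere in the lists, the summed pileups had a ratio of 2.59, and the median ratio of a pair was 2.5, with quartiles of 2.0 and 3.06. In 3 of the 4 pairs of the cluster the ratio was below that median. With only the higher subpeak of the double locus counted, the sums were 40 and 64, a ratio of 1.60 (1.06 to 2.44), and the same choice gave 2.58 over 191 pairs elsewhere. These ratios are a description. Their intervals hold counting error and not the spread among pairs, and no difference between the cluster and the other pairs is read from them.

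The local background, like the pileup, was higher in C14 and is not on a common scale between the bulls. Over the whole lists, the lowest background of C14 is 2.66 times that of C13. How much of the rise at these summits goes with this scale was not tested. At all 4 shared summits the background was higher in C14, from 0.495 to 2.02 at the locus of MIR2404-2. At the single-peak locus of PPP2R2A it went from 0.135, the lowest value of the C13 list, to 0.448. At the subpeaks of the double locus it was 0.273 and 0.261 in C13 and 1.07 and 1.04 in C14. As a result the fold enrichment, which divides the pileup by this background with 1 added to both, moved differently from the pileup. At the locus of MIR2404-2 it was 10.0 in C13 and 5.96 in C14, and the −log10 q was 11.8 and 6.68. At the single-peak locus of PPP2R2A it was 6.17 and 6.22, and at the subpeaks it was 7.86 and 16.7 in C13 and 12.1 and 19.7 in C14. The fold enrichment was thus lower in C14 in 1 of the 4 pairs, beside 51.5% of the 200 pairs elsewhere.

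**Figure D2:**
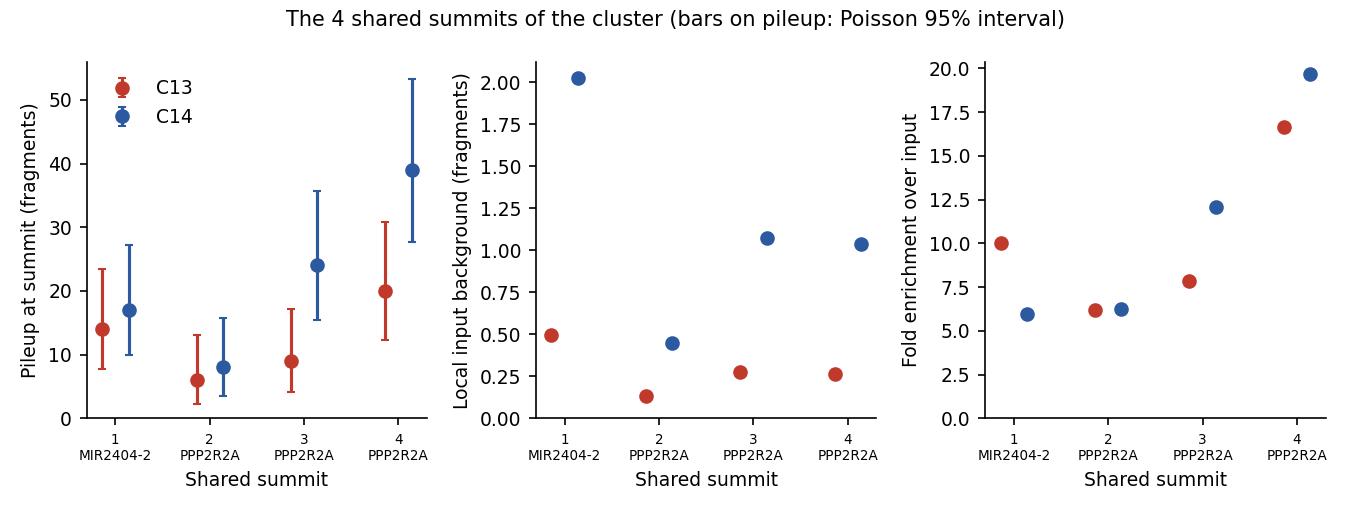
Pileup (with the exact Poisson 95% interval), local input background and fold enrichment in C13 and C14 at the 4 shared summits, numbered along the chromosome. The pileup and the background, neither on a common scale between the bulls, are higher in C14 at each summit. The fold enrichment of the MIR2404-2 summit is lower, 5.96 in C14 and 10.0 in C13.

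For the 12 C14 loci with no overlapping C13 locus, 6 of each gene, the pileup was divided by 2.66, the ratio of the lowest local backgrounds, as an approximate scale to set them beside the C13 list. The scaled pileup ranged from 3.01 to 11.3 fragments, with a median of 5.64, and the lowest pileup in the C13 list is 4. It reached 4 at 10 of the 12 loci, where 61.5% of the 377 unshared C14 loci outside the cluster did. The exceptions were C14 locus 4 at 3.38 and C14 locus 13 at 3.01. With the median ratio of the other shared pairs, 2.5, in place of 2.66, the same 10 loci reached 4. The count depends on the factor. Locus 4 would reach 4 with any factor up to 2.25 and locus 13 with any up to 2.0. The median background ratio of the shared pairs left 6 of the 12 loci with the 3.95 of the cluster and 1 with the 6.21 of the pairs elsewhere. These background ratios differ from locus to locus and do not measure depth alone, as the pairs elsewhere had a median pileup ratio of 2.5. With the fold enrichment held equal on the lowest C13 background instead, 11 of the 12 would hold at least 4 fragments, all but C14 locus 3 at 3.65. These last 3 settings were added after the data were seen. The read totals of the libraries, which could give another factor, were not used here. The highest was C14 locus 2, with 11.3 scaled fragments, and C14 locus 11 had 7.89. Reaching the lowest pileup is not the same as being called, since 4 fragments sufficed only where the background was low.

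**Figure D3:**
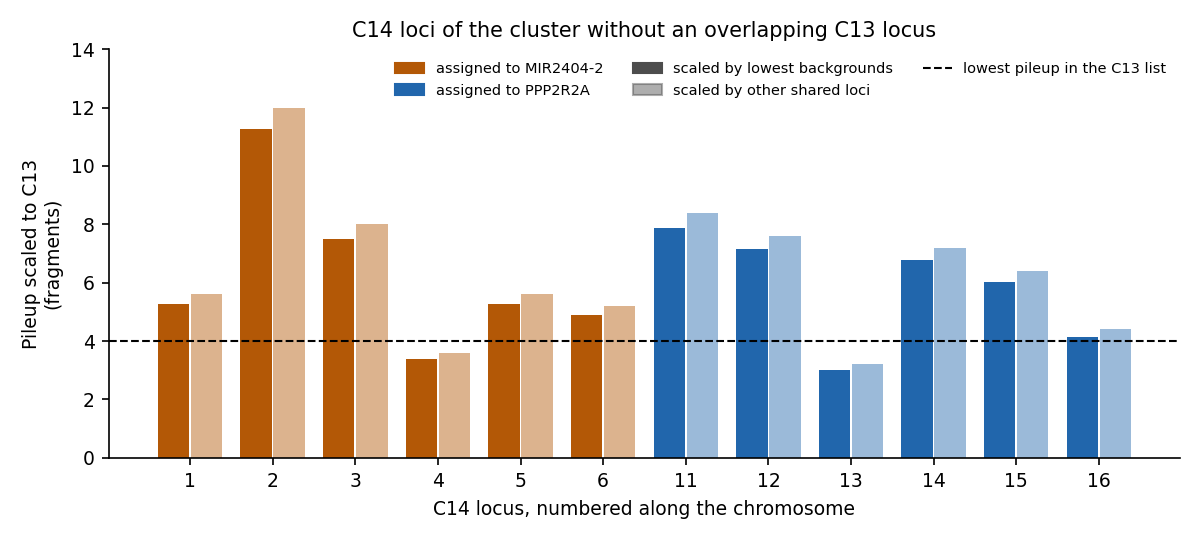
Pileup of the 12 unshared C14 loci of the cluster scaled to C13 (vertical axis, fragments), by the lowest backgrounds (dark bars) and by the other shared loci (pale bars). All but loci 4 and 13 stand above the dashed line at 4 fragments, the lowest pileup in the C13 list.

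Against all loci of the same list, the loci of the cluster were not unusually high. Their median pileup was 9 in C13, equal to that of the list, and 16.5 in C14, where that of the list was 18. The median fold enrichment was 7.86 in C13 (list 7.56) and 9.01 in C14 (list 6.76), and 11 of the 16 C14 loci were above the list's median. The median local background of the C14 loci was 0.904, where that of the list was 1.09. The PPP2R2A loci of C14 had a median pileup of 18 (8 to 39) and the MIR2404-2 loci 14 (9 to 30), and the ranges overlap almost wholly. The loci were of ordinary width, with a median of 308 bp in C13 (list 236.5 bp) and of 212 bp in C14 (list 239.5 bp).

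**Figure D4:**
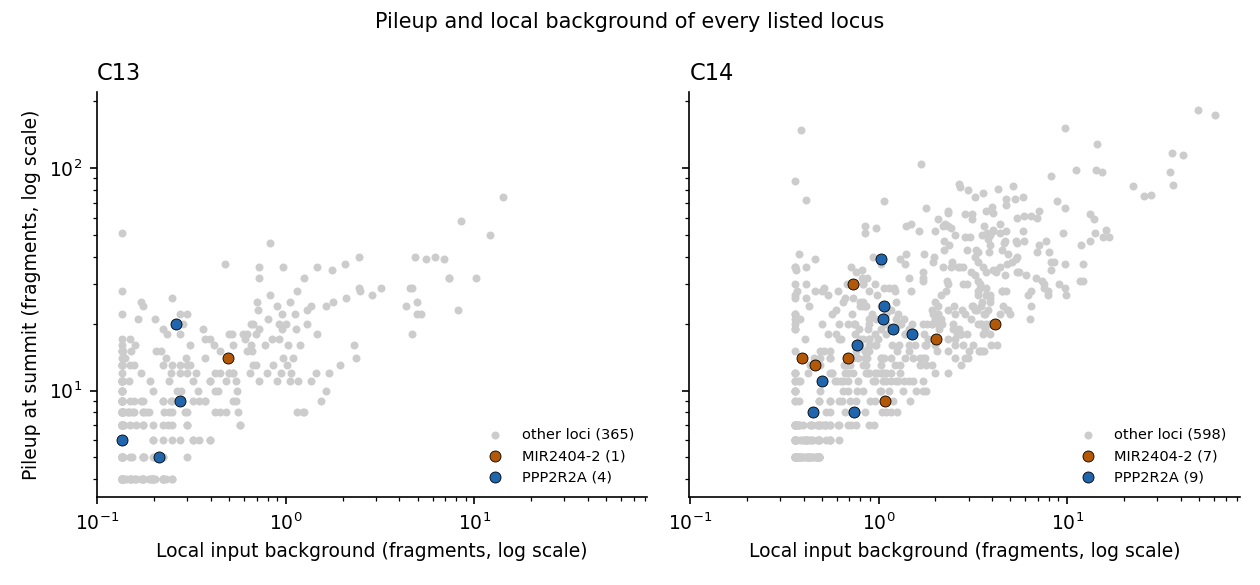
Pileup against local input background (both in fragments, log scales) for every listed locus of C13 and C14, with the loci of MIR2404-2 and PPP2R2A in colour. The coloured loci lie within the cloud of the other 365 loci of C13 and 598 loci of C14.

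By its number of intervals, the cluster ranked near the top of the C14 list, as a description of a cluster that was chosen for its loci. When gaps of up to 100 kb were bridged, the C14 cluster held 15 intervals, and 3 of the 295 clusters of C14 held more. Only 80 of the 295 had more than 1 interval. Bridging only gaps of up to 50 kb left 9 intervals in the larger piece of the C14 cluster. The C13 cluster held 4 intervals over 118 kb, and 12 of 190 held more, 68 of the 190 having more than 1 interval. Distances to the next listed loci were measured for both bulls from the outermost loci of the joined cluster, which were those of C14. The next locus of C14 was 9.93 Mb away on the side of MIR2404-2 and 8.44 Mb away on the side of PPP2R2A. Those of C13 were 9.63 Mb and 2.56 Mb away. With both lists joined, the cluster of WRN, a gene for a DNA helicase, on chromosome 27 had the same number of intervals, 16. It held them in 60.0 kb, where the cluster of MIR2404-2 and PPP2R2A took 292 kb, a density of 26.7 and 5.48 intervals per 100 kb on the bosTau8 distances. None of the loci of the WRN cluster was distal intergenic. It had 6 loci in C13 and 15 in C14, of which 5 in each bull overlapped, and its median pileups were 11 and 27. The next cluster in number of intervals, that of LYRM1 and SET on chromosome 25, held 11 over 148 kb, and those of FAM107A, WBSCR17 and NUDT12 held 10 each. All loci of these 4 clusters were distal intergenic, as were the 21 described here.

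By number of loci, PPP2R2A was 7th of the 291 genes of C14, and MIR2404-2 was 14th, each level with 1 other gene. In C13, PPP2R2A was 16th of the 188 genes, in a tie of 6, and MIR2404-2 stood in the tie of 109 genes with 1 locus. The genes with the most similar counts to PPP2R2A (4 in C13, 9 in C14) were NUDT12 and NR3C1 on chromosome 7, each with 5 and 8, and FMR1NB on chromosome X, with 3 and 8. For MIR2404-2 (1 and 7) they were KCTD3, UBE2E2 and DOK5, each with 1 and 5. These likenesses are in counts over 2 lists and nothing else.

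Of all protein-coding genes in the later assembly's table, 0.849% had a locus in C13 and 1.29% in C14, against which the following counts of listed genes can be read. Of 19 symbols for PP2A subunits, which include the catalytic, scaffold and regulatory genes and the striatins, 18 of them found in that table, 1 had a locus, PPP2R2A, which was chosen for having them. Of 12 symbols for regulators of PP2A, 10 of them found in the table, 1 had loci, SET, which encodes an inhibitor of the phosphatase. SET was assigned 1 locus in C13 with a pileup of 9 and 3 loci in C14 with pileups of 8, 12 and 13, all distal intergenic on chromosome 25 and 96521 to 115337 bp upstream of the listed TSS, and none overlapped between the bulls. The gene table of the later assembly gives the same gene number on another chromosome, so this assignment is uncertain. The other listed copy of the microRNA, MIR2404-1, had no locus in either bull, and of 12 genes that lie near PPP2R2A in mammals, among them EBF2 and BNIP3L, 0 had a locus.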

How the data were processed

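OG-seq was done on sperm DNA of the bulls C13 and C14, with 1 captured and 1 input library each. Peaks were called by the authors with MACS2, against the bull's own input, from reads placed on bosTau8 by the Isaac aligner and freed of duplicates in Picard, and ChIPseeker gave each its nearest gene. The deposited pileup is an unnormalized signal in fragments, the deposited fold enrichment is a ratio to the local input background, and the deposited p and q are −log10 values. The lists do not give library depth, and read totals were not used here. The local background was recovered as the pileup plus 1 over the fold enrichment, minus 1. The Poisson p recomputed from it differed from the deposited one by a relative 1.4e-06 at most over the 21 loci. A background counted as the lowest within 0.001. Coordinates are as listed. Both tables were read with pandas version 2.3.3, intervals came from scipy version 1.17.1, figures from matplotlib version 3.10.9, and the functions were tested on simulated data. No test across loci was run, since loci are not replicates. Alternative thresholds, overlaps, scalings and linking distances were tried. Named genes were the members, fixed lists of PP2A, miR-2404 and neighbouring genes, the 3 genes nearest in counts to each member, and clusters nearest in number of intervals, of which WRN, the only one with the same number, is described. The members and lists were chosen with earlier results of these data known. The sequences that the C14 list gives for 10 promoter loci belong to other genes and were not used.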

Additional observations from a re-analysis of the deposited data

How the results depend on the processing

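Of 27 alternative settings, 21 kept their result within 1.5 times the count or within the interval of the ratio. With intervals linked at no more than 50 kb, the gap of 57.9 kb split the C14 cluster, and its larger part held 9 intervals over 132 kb, while the larger part of the C13 cluster extended over 40.6 kb. With fold enrichment in place of pileup, the summed ratio of C14 to C13 over the shared summits was 1.08. The fold divides by the local background, which was higher in C14 and is not on a common scale between the bulls. A −log10 q of at least 5 left 4 C13 and 12 C14 loci, of which 3 in each bull overlapped, beside 69.5% of all such loci in C13 and 45.0% in C14. Allowing intervals up to 2 kb apart gave 5 shared loci in each bull, beside 62.7% of the C13 list and 44.3% of the C14 list. The number of unshared C14 loci that reached the lowest C13 pileup was 10, and it was 6 and 1 with the median background ratios of the shared pairs inside and outside the cluster as factors, which were chosen after seeing the data. Both factors are larger than 2.66, and neither measures depth alone. No paired analysis was possible because each bull had 1 captured library and no replicate. Low pileups limit the precision, variation among animals was not measured, and loci under the authors' thresholds were not analysed here.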
